A study of Mus musculus with 20 samples.

Results

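Expression of 10 temperature-linked genes was followed through the day in lymphatic endothelial cells (LECs) of mouse skin. The genes were chosen by symbol from a written list: the heat shock proteins and cochaperones Hspa1a, Hspa1b, Hspa8, Hsph1, Dnajb1, Hsp90aa1, Hspd1 and Hspe1, and the cold-inducible RNA-binding proteins Cirbp and Rbm3. All 10 were found among 24062 gene symbols, and all 10 passed the filter on low counts, as did 19209 genes altogether. The LECs were sorted as CD31+podoplanin+ cells from ear skin of wild-type mice labelled C57BL/6 at postnatal day 56. The study's methods name the substrain C57BL/6N. Groups were 4 zeitgeber times, which count hours from lights on: ZT1 and ZT7 in the light phase, ZT13 and ZT19 in the dark phase, with 5 libraries each. Each library was made from a pool of 4 ears of 2 mice, so a library gives a mean over animals and over all sorted cells. The labels name no transgene, deletion or treatment in any group. In such bulk libraries, fewer cells of a type and less RNA per cell cannot be told apart.

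Heat shock proteins are chaperones that hold or refold proteins, and many of their genes are switched on by heat shock factors when proteins unfold. Cirbp and Rbm3 encode small RNA-binding proteins whose messages rise when mammalian cells are mildly cooled and fall when they are warmed. Mice are warmer in their active phase at night than in their resting phase by day, and in several tissues transcripts of both classes are known to follow this body temperature cycle, with heat shock genes high in the warm phase and Cirbp high in the cool phase.

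Sequence around the RefSeq starts of some of these genes is shown because the heat shock and cold classes are known for different control elements. In RefSeq (GRCm38.p6, the build that mm10 denotes), promoter windows of 250 bases before and 50 bases after the transcription start were matched for 7 of the 10 genes, and those of Hspa8, Hsp90aa1 and Rbm3 were not analysed here. The heat shock element is built of inverted repeats of a short unit, searched here as the letters GAANNTTC and TTCNNGAA on both strands. Each of these reads the same on both strands, and where they adjoin they share letters. One or the other occurred in a window of 17.0% of 27025 genes and of 5 of the 7 genes here, and the windows of Dnajb1 and Cirbp held neither. These 5 genes hold 3 distinct sets of matched letters, since Hspa1a shares its letters with Hspa1b and Hspe1 with Hspd1. Capitals in the first 3 lines mark these letters. Capitals in the line for Cirbp mark TCCCCGCC, a run described for cold-induced transcription of that gene, which occurred on either strand in a window of 6.19% of the genes. Among the 7 genes here it lay in windows of Cirbp, Hspa1a, Hspa1b and Dnajb1, so it was not confined to the cold class. In Dnajb1 it lay after the start of 1 of 2 windows.
Hspa1a and Hspa1b: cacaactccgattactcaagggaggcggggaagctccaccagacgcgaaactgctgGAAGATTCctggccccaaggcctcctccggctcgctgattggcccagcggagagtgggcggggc
Hspe1 and Hspd1: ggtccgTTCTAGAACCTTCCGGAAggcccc
Hsph1: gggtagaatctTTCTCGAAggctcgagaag
Cirbp: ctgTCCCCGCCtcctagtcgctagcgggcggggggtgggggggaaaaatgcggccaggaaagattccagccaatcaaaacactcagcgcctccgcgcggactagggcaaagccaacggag

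The stretch shown for Hspa1a lay at chr17:34972197-34972316 on the minus strand and that for Hspa1b at chr17:34959279-34959398 on the same strand. Both hold identical letters there, and the windows of these neighbouring genes differed at 4 of 300 bases. Their TCCCCGCC run lay on the opposite strand, further from the start than the heat shock letters. Hspe1 and Hspd1 lie head to head, and the stretch shown for them lay at chr1:55088053-55088082 on the plus strand, which is the strand of Hspe1. Here GAANNTTC and TTCNNGAA overlapped in 1 unbroken run. It fell in the window of Hspe1 and in 1 of 2 windows of Hspd1, whose RefSeq start lies 311 bases inside the gene as GENCODE M21 places it. The other window of Hspd1, at the 5′ end of the gene, held neither set of letters, and the longer transcript that begins there (Hspd1-202) covers the stretch shown with an exon. The stretch of Hsph1 lay at chr5:149636351-149636380 on the minus strand, and the window of Hsph1 held 2 further matches after the start. That RefSeq start lies 40 bases inside the gene in GENCODE M21, and 26 of the 30 bases shown are exonic in longer transcripts. The stretch of Cirbp lay at chr10:80167589-80167708 on the plus strand, before a RefSeq start that lies 1854 bases inside the gene in GENCODE M21, and it overlapped no annotated exon. Nor did the stretches of Hspa1a and Hspa1b, which lay outside any annotated gene. A match of letters is a description of the sequence and not of a bound factor.

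Between 4475111 and 42002363 reads per library were counted on genes, with a median of 9379794. The LEC transcription factor gene Prox1 ranged from 1276 to 4490 normalized read counts over the 20 libraries and the LEC receptor gene Lyve1 from 6393 to 29894. The LEC chemokine gene Ccl21a had 0 counts in all of them, which does not show that its message was absent. Reads aligned to more than 1 place were not counted, and whether this removed reads of Ccl21a was not tested. By qPCR, the study did measure Ccl21 message in sorted dermal LECs, with a peak at night. The keratinocyte gene Krt14 ranged from 2936 to 72834. Reads on genes made up 35.0% to 81.6% of reads on a gene or on none at ZT19, with a median of 64.0%, against medians of 24.8% at ZT1, 17.5% at ZT7 and 22.9% at ZT13. At ZT7 and ZT13, 1 library each stood apart from the others of its time, with 62.3% (ZT7 replicate 2) and 79.9% (ZT13 replicate 5). Normalized read counts are counts scaled to a common library size with TMM factors. Smallest counts of any listed gene in any library were 62 (Hspa1a in ZT7) and 67 (Hsph1 in ZT1), so none of these genes was near the floor of 3 counts.

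The first question was whether the level of each gene differed among the 4 times. None of the 10 genes passed an adjusted p of 0.05 in edgeR's quasi-likelihood F-test, where 0.422% of all genes tested did, and their adjusted p ranged from 0.103 (Rbm3) to 0.800 (Hspa1a). At an unadjusted p of 0.05, 3 of the 10 passed (Hspd1, Dnajb1 and Rbm3), against 15.7% of all genes. With DESeq2, 1 of the 10 passed after adjustment, Rbm3 with an adjusted p of 0.0103, against 3.77% of all genes. The mean was highest at ZT19 for 8 of the 10 genes, as it was for 27% of all genes, and highest at ZT1 for Hsp90aa1 and Hspe1, as for 27.2% of all genes. ZT7 and ZT13 held the highest mean of 0 of the 10, against 27.7% and 18.1% of all genes. The mean was lowest at ZT13 for 7 of the 10, as for 20% of all genes, at ZT1 for Hspa1b and Hsph1 (16.5%) and at ZT7 for Hspa8 (17.4%). It was lowest at ZT19 for 0 of the 10, against 46% of all genes. Between neighbouring times in each gene's own order, the libraries overlapped in 30 of 30 instances. Among all 60 combinations of a gene and a pair of times they did not overlap in 5, of which 4 had ZT19 higher. Of all genes, 2.38% were separated with ZT19 higher than ZT1, 0.921% than ZT7 and 1.87% than ZT13. The remaining combination was Hspd1, lower at ZT13 than at ZT1, as 0.984% of all genes were. No listed gene was separated with ZT19 lower, as 6.17% of all genes were against ZT1, 1.02% against ZT7 and 0.614% against ZT13. Nor was any between ZT7 and ZT1, where 0.578% of all genes were separated with ZT7 higher and 1.17% with ZT7 lower, or between ZT13 and ZT7, where 0.255% and 0.75% were.

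**Figure D1:**
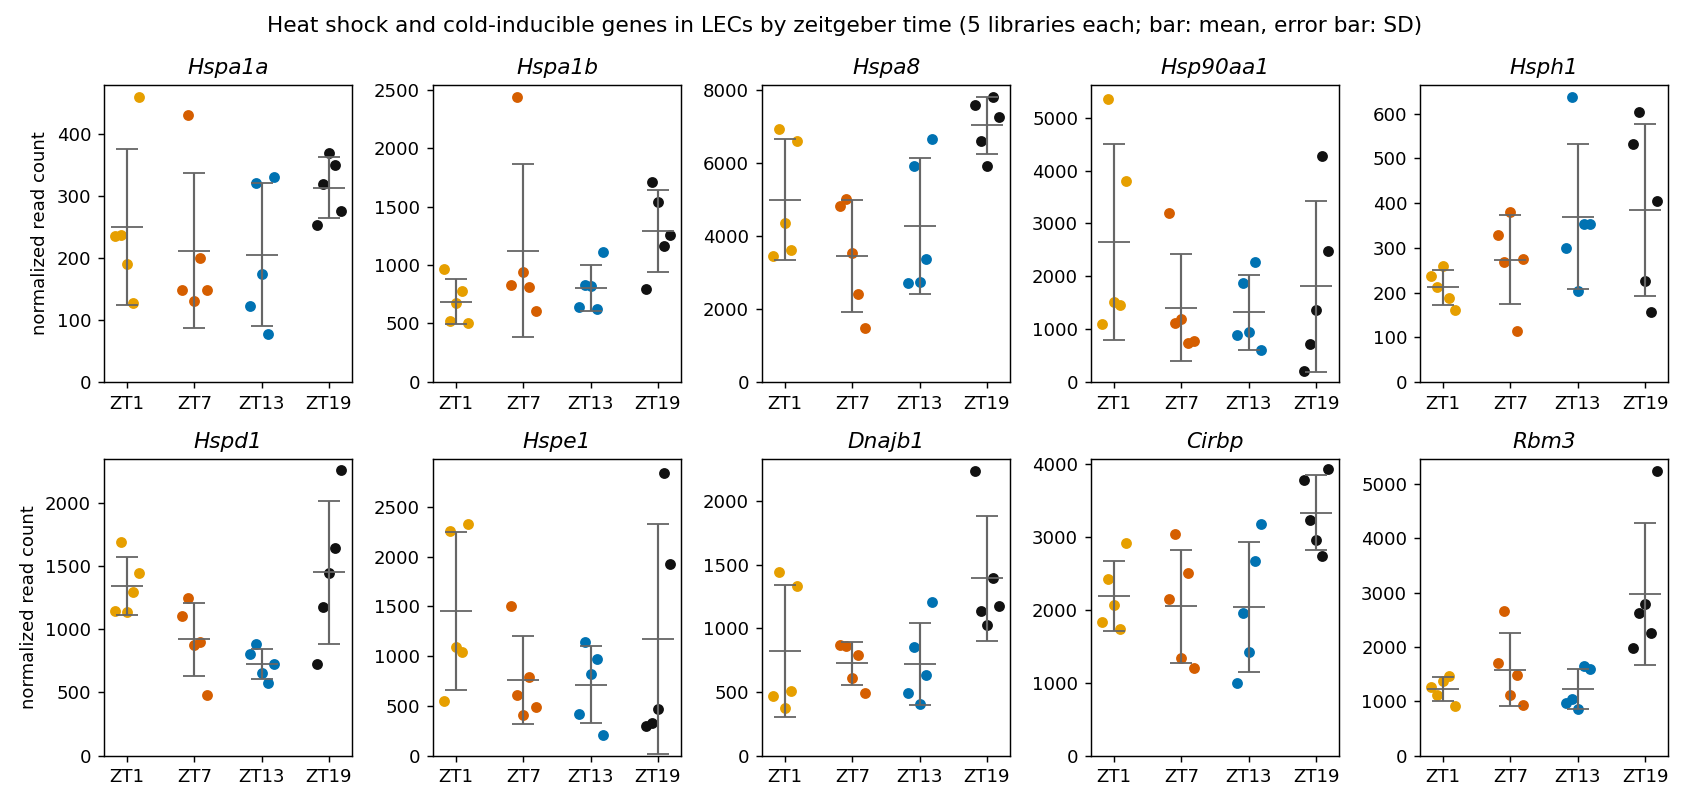
Normalized read count (vertical axis, from 0) of each of the 10 genes at ZT1, ZT7, ZT13 and ZT19 (horizontal axis). Points are the 5 libraries of a time, the bar is their mean and the error bar the SD. ZT19 has the highest mean in 8 panels, and Hsp90aa1 and Hspe1 spread most within a time.

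The cytosolic Hsp70 system was represented by 5 genes. Hspa8 encodes the constitutive Hsp70 that folds new proteins and lies at chr9:40800984-40810087. Its normalized read counts in replicates 1 to 5 were 7581, 6582, 5902, 7810 and 7243 at ZT19 and 4826, 4995, 3514, 2411 and 1465 at ZT7. At ZT1 they were 3435, 6922, 4338, 3623 and 6595, and at ZT13 2699, 5918, 2739, 3366 and 6637. Every ZT19 library lay above every ZT7 library, a separation in this direction that 0.921% of all genes showed, while ZT19 overlapped with ZT1 and with ZT13. The level at ZT19 was 1.03 higher than at ZT7 on the log2 scale (95% interval 0.26 to 1.80), with an adjusted p of 0.142 in edgeR and 0.0335 in DESeq2. DESeq2 passed 12.2% of all genes in this pair. Of a transcript of Hspa8, 63.4% of the windows of 100 bases, the read length, also occurred in transcripts of other genes, chiefly the pseudogene Gm15459, so part of its reads could not be placed.

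Dnajb1 encodes the heat-inducible J-domain protein that loads clients onto Hsp70 and lies at chr8:83608193-83612653. It had 2237, 1136, 1026, 1393 and 1179 normalized read counts at ZT19 and 873, 859, 614, 792 and 489 at ZT7, again without overlap. At ZT13 it had 494, 851, 405, 632 and 1211, and at ZT1 470, 1443, 371, 506 and 1331. Within ZT1, 2 libraries thus lay near the ZT19 level and 3 near the lowest of the study. The difference between ZT19 and ZT13 was 0.95 on the log2 scale (95% interval 0.16 to 1.74), with an adjusted p of 0.172 in edgeR.

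Hspa1a and Hspa1b, the stress-inducible Hsp70 pair, lie next to each other on chromosome 17 (chr17:34969190-34972156 and chr17:34956436-34959238). Hspa1b had 795, 1707, 1536, 1163 and 1256 normalized read counts at ZT19 and 965, 518, 671, 780 and 500.5 at ZT1, where a single ZT19 library fell within the ZT1 range. The difference between ZT19 and ZT1 was 0.91 on the log2 scale (95% interval 0.19 to 1.63; adjusted p = 0.133 in edgeR). At ZT7 Hspa1b had 830, 2437, 937, 811 and 605, and at ZT13 637, 830, 823, 623 and 1109. ZT7 replicate 2 was thus the highest of the 20 libraries. ZT19 minus ZT7 was 0.20 on the log2 scale (95% interval -0.51 to 0.91). Hspa1a had 313 ± 49.2 (SD, n = 5) at ZT19 and between 205 and 249.5 on average at the other times, and none of its intervals left 0. The pair shares a run of 638 identical bases, and 49.9% of the 100-base windows of Hspa1b also occur in Hspa1a, so the split of reads between them is uncertain. Hspa1b was the higher of both in all 20 libraries, by 1.09 to 8.11 times, and the summed pair had an adjusted p of 0.417 among the 4 times. Of the exon bases of Hspa1a, 19.01% overlap Gm20481 on the other strand. The labels do not say whether counting used strand.

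Hsph1 encodes Hsp110, which recharges Hsp70 with ATP, and lies at chr5:149614287-149636376. It had the largest fitted difference between dark and light of the 10 genes, with means of 370 ± 162 (SD, n = 5) at ZT13 and 385 ± 192 at ZT19 against 212 ± 38.8 at ZT1 and 273 ± 99.8 at ZT7. The ZT19 libraries had 533, 604, 225, 157 and 404 normalized read counts and the ZT1 libraries 238, 213, 259, 189 and 160. So 3 of 5 ZT19 libraries lay above the ZT1 range, 1 within it and 1 below it. The mean over both dark times was 0.65 higher than over both light times on the log2 scale (95% interval 0.04 to 1.26), with an unadjusted p of 0.0371 and an adjusted p of 0.346 in edgeR.

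Hsp90aa1, the inducible cytosolic Hsp90, was the most variable gene of the list. It lies at chr12:110690605-110702728. Its ZT19 libraries had 204, 717, 1365, 4273 and 2483 normalized read counts and its ZT1 libraries 1087, 5361, 1510, 1462 and 3793. At ZT7 the values were 3192, 1122, 1197, 746 and 773, and at ZT13 880, 1880, 946, 2266 and 597. The lowest and the highest library thus differed 26.3-fold, and the ZT19 libraries alone spanned most of that range. The SD of log2 normalized read counts within a time was 1.14, at the 96th percentile of the 500 genes nearest to it in mean. The largest difference of means, ZT1 over ZT13, was 1.01 on the log2 scale and its interval included 0 (ZT13 minus ZT1, 95% interval -2.21 to 0.20).

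The mitochondrial chaperonin consists of Hsp60, encoded by Hspd1 (chr1:55077835-55088243), and its lid Hsp10, encoded by Hspe1 (chr1:55088132-55091307). Hspd1 had 1144, 1688, 1134, 1295 and 1446 normalized read counts at ZT1 and 800.1, 881, 655, 577 and 722 at ZT13. All ZT1 libraries lay above all ZT13 libraries, as was the case in this direction for 0.984% of all genes. The difference, ZT13 minus ZT1, was -0.88 on the log2 scale (95% interval -1.52 to -0.25; adjusted p = 0.654 in edgeR). At ZT19 Hspd1 had 727, 1174, 1439, 1641 and 2257, which was 0.99 higher than ZT13 on the log2 scale (95% interval 0.35 to 1.63). The adjusted p of that difference was 0.0961 in edgeR and 0.0303 in DESeq2, which passed 9.68% of all genes in this pair.

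Hspe1, the head-to-head neighbour, varied more than Hspd1, and their log2 normalized read counts had an r of 0.57 over the 20 libraries. At ZT19 it had 294, 331, 467, 2843 and 1922 normalized read counts and at ZT1 548, 2261, 1096, 1038 and 2327. The 5 ZT19 libraries thus held 3 low and 2 high ones, and they spanned the whole ZT1 range. The ratio of Hspe1 to Hspd1 ranged from 0.282 to 1.73 over the 20 libraries, and its ends were both found at ZT19. Within a time the SD of log2 normalized read counts of Hspe1 was 1.07, at the 98.2nd percentile of the 500 genes nearest in mean, against 0.44 and the 17.8th percentile for Hspd1.

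The same libraries were high for Hspe1 and for Hsp90aa1. Across the 20 libraries their log2 normalized read counts had a Pearson r of 0.88, and of 0.87 after each time's mean was taken out. This was the closest of the 45 pairs of listed genes, and it is given as a description, since the libraries share their depth and makeup. ZT19 replicate 4 and ZT1 replicate 2 were high for both, and ZT19 replicate 1 was low for both.

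**Figure D2:**
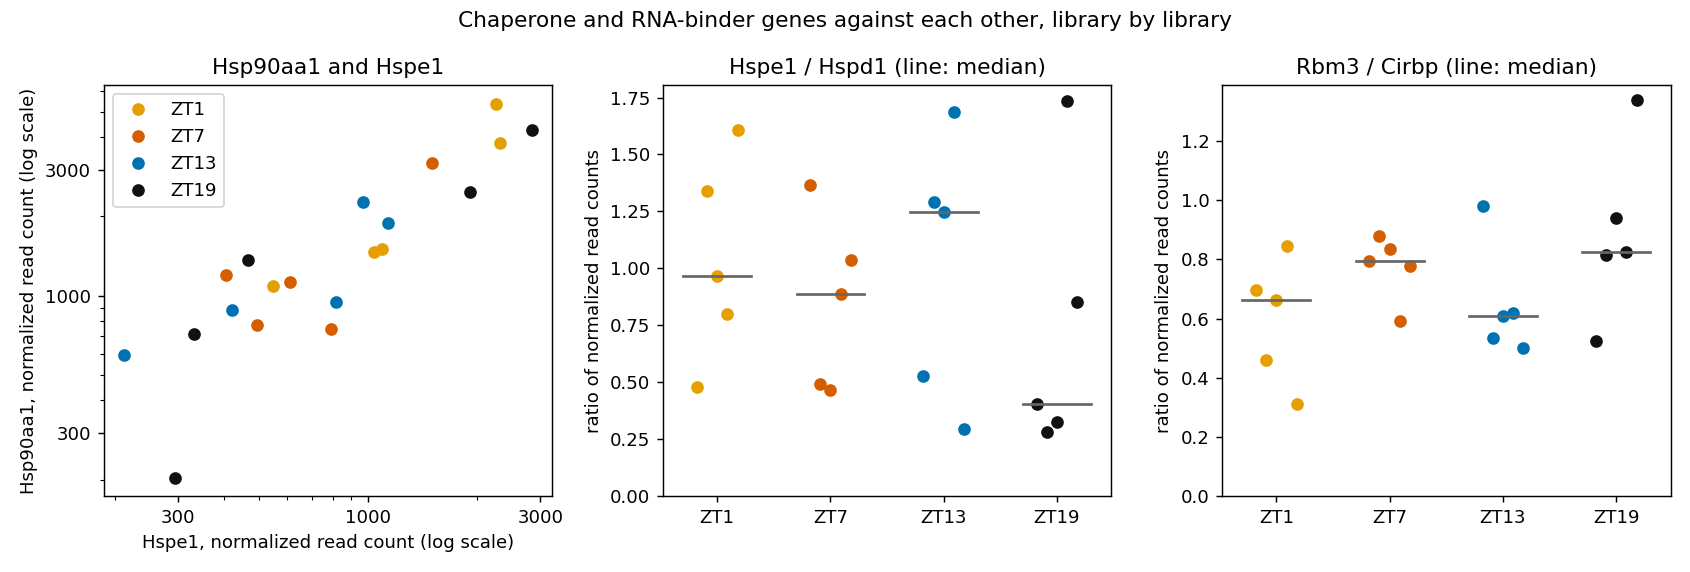
Left, Hsp90aa1 against Hspe1 in normalized read counts on log axes, with 1 point per library coloured by time. Centre and right, the ratio of Hspe1 to Hspd1 and of Rbm3 to Cirbp in each library (points) with the median of each time (line). Hsp90aa1 and Hspe1 rise together over all 4 times, and the Hspe1 to Hspd1 ratio at ZT19 runs from 0.282 to 1.73.

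Of the cold-inducible genes, Rbm3 (chrX:8138975-8145880) showed the largest difference among times of all 10 genes. Its normalized read counts were 1977, 2635, 2784, 2260 and 5249 at ZT19. They were 1273, 1117, 1368, 1464 and 908 at ZT1, 1702, 2665, 1119, 1487 and 938 at ZT7, and 978, 1040, 861, 1654 and 1593 at ZT13. Every ZT19 library lay above every ZT1 and every ZT13 library, separations that 2.38% and 1.87% of all genes showed in this direction, whereas ZT7 replicate 2 lay within the ZT19 range. The mean was 2981 ± 1307 (SD, n = 5) at ZT19, 1226 ± 219 at ZT1, 1582 ± 676 at ZT7 and 1225 ± 370 at ZT13. ZT19 was 1.28 higher than ZT13 on the log2 scale (SE 0.34, 95% interval 0.59 to 1.98), with an adjusted p of 0.0702 in edgeR and 0.00816 in DESeq2. Against ZT1 the difference was also 1.28, with an adjusted p of 0.08999 in edgeR and 0.00527 in DESeq2. The result thus fell on either side of the threshold by tool, and 0.588% of all genes passed in edgeR between ZT19 and ZT13 and 0.0156% between ZT19 and ZT1. In DESeq2, where Rbm3 passed, 9.68% and 10.8% of all genes passed in these pairs. Of the exon bases of Rbm3, 2.63% overlap the antisense gene Rbm3os. With each of the 20 libraries left out in turn, the edgeR difference ranged from 0.98 to 1.42 between ZT19 and ZT13 and from 0.97 to 1.48 between ZT19 and ZT1, and both lowest values came without ZT19 replicate 5. The former passed without ZT13 replicate 5 (1.40), where 4.3% of all genes did, and the latter without ZT19 replicate 4 (1.36), where 4.55% did.

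Cirbp (chr10:80165985-80172786) was also highest at ZT19, with less contrast. It had 3779, 3232, 2959, 2741 and 3922 normalized read counts at ZT19 and 996, 1951, 1416, 2672 and 3174 at ZT13. At ZT1 it had 1824, 2426, 2060, 1730 and 2907, and at ZT7 2144, 3036, 1339, 2504 and 1204. In each of the other times at least 1 library reached into the ZT19 range. The difference between ZT19 and ZT13 was 0.70 on the log2 scale (95% interval 0.01 to 1.40), with an adjusted p of 0.254 in edgeR and 0.208 in DESeq2. The ratio of Rbm3 to Cirbp ranged from 0.312 to 1.34, and its median was 0.824 at ZT19, 0.794 at ZT7, 0.664 at ZT1 and 0.608 at ZT13.

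Cirbp and Rbm3 did not run opposite to the heat shock genes in these libraries. All 16 correlations of a heat shock gene with Cirbp or Rbm3 over the 20 libraries were above 0, and they ranged from 0.0024 (Hsp90aa1 with Rbm3) to 0.77 (Dnajb1 with Cirbp). Cirbp and Rbm3 had an r of 0.73 with each other, and of 0.59 within times. Hspa8 and Dnajb1 had an r of 0.79 with each other. These values are descriptions over libraries that share depth and makeup, and they carry no test.

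The second question was whether the genes differed between the dark times, when mice are active, and the light times. Of the 10 genes, 0 passed after adjustment in edgeR, against 0.0104% of all genes, and 1 passed unadjusted (Hsph1), against 13.4%. In DESeq2 0 of the 10 passed, against 1.28%. The fitted difference was above 0 for 7 genes and below 0 for Hsp90aa1, Hspd1 and Hspe1, and its median over the 10 genes was 0.26 on the log2 scale, against -0.22 over all genes tested. Over the 93 further chaperone and RNA binder genes described below, that median was 0.095. For a wave of 24 h, 0 passed after adjustment in edgeR, against 0.0312% of all genes, and 2 passed unadjusted (Hspa8 and Hspd1), against 9.23%. DESeq2 also passed 0, against 0.791%. The crest of the fitted wave lay between 15.1 h and 23.7 h after lights on for the 10 genes, with Hsph1 the earliest and Hsp90aa1 the latest, and its amplitude between 0.15 and 0.60 on the log2 scale.

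Of the 6 pairs of times, those of ZT19 with ZT7 and with ZT13 gave the most unadjusted calls. After adjustment 0 of the 10 genes passed in any pair in edgeR, against 0.588% of all genes for ZT19 with ZT13, 0.0937% for ZT13 with ZT7, 0.0208% for ZT13 with ZT1, 0.0156% each for ZT19 with ZT1 and with ZT7, and 0.00521% for ZT7 with ZT1. In DESeq2 4 combinations passed: Rbm3 between ZT19 and ZT1 and between ZT19 and ZT13, Hspd1 between ZT19 and ZT13, and Hspa8 between ZT19 and ZT7. Of all genes, DESeq2 passed 10.8% between ZT19 and ZT1, 12.2% between ZT19 and ZT7 and 9.68% between ZT19 and ZT13, but 0.0854% between ZT7 and ZT1, 0.79% between ZT13 and ZT1 and 0.639% between ZT13 and ZT7. Unadjusted, 5 genes passed in edgeR between ZT19 and ZT7 (Hspa8, Hspd1, Dnajb1, Cirbp and Rbm3), against 19.7% of all genes, and 4 passed between ZT19 and ZT13 (Hspd1, Dnajb1, Cirbp and Rbm3), against 19.2%. Between ZT19 and ZT1 2 passed (Hspa1b and Rbm3), against 21.6%, and between ZT13 and ZT1 1 passed (Hspd1), against 5.37%. Neither ZT7 against ZT1 nor ZT13 against ZT7 gave 1 that passed unadjusted, where 4.97% and 2.59% of all genes did. The pairs with ZT19 share the ZT19 libraries. All 10 fitted values were higher at ZT19 than at ZT7 and than at ZT13, with a median of 0.71 on the log2 scale for ZT19 minus ZT13. That of Hsph1 was 0.06 and turned to -0.030 and -0.083 with 2 other scalings. Over all genes tested the median of ZT19 minus ZT13 was -0.22, and the other scalings moved it to -0.39 (RLE) and -0.45 (upper quartile). Relative to this median, the median of the 10 genes lay 0.93 higher with TMM, 0.94 with RLE and 0.95 with upper quartile scaling. Over the 93 further chaperone and RNA binder genes described below, the median of ZT19 minus ZT13 was 0.42 with TMM. No set of genes matched in level was used for this comparison.

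**Figure D3:**
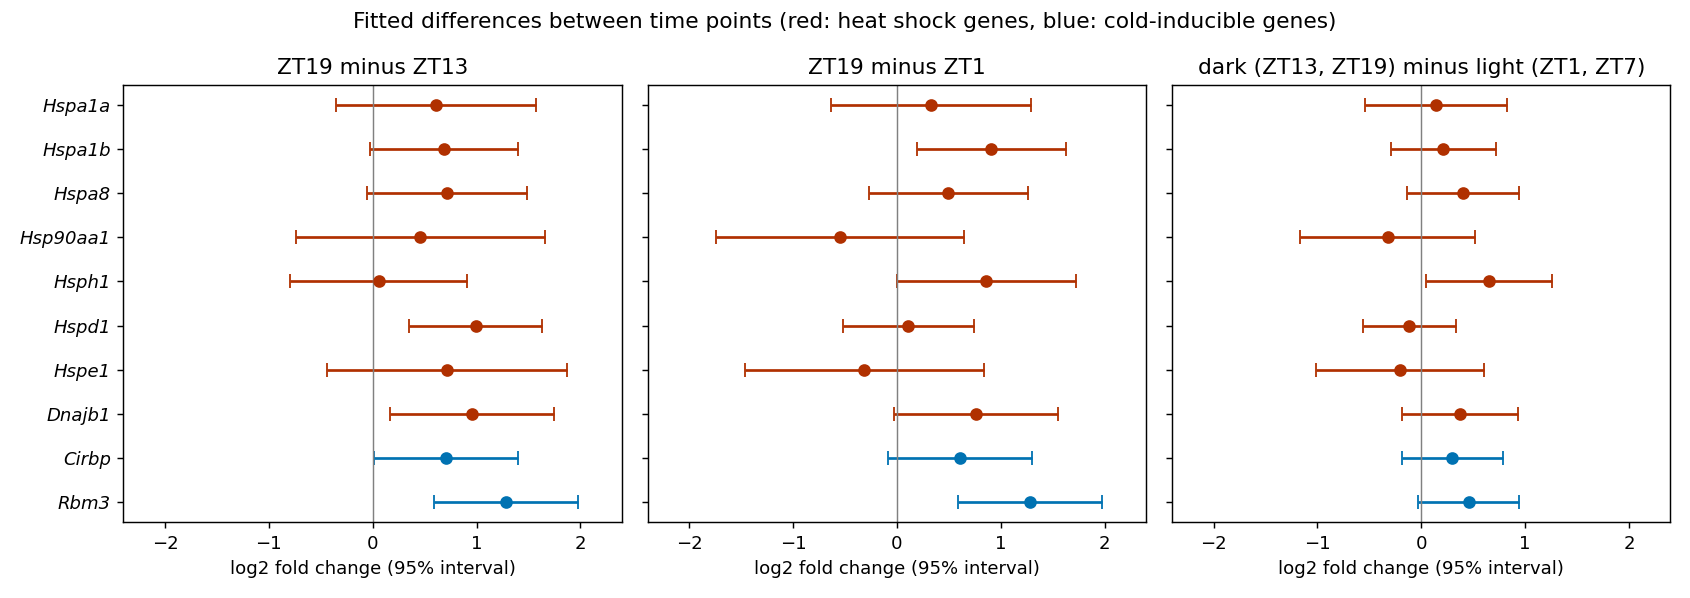
Fitted log2 fold change with its 95% interval (horizontal axis) for each gene (vertical axis), for ZT19 minus ZT13, ZT19 minus ZT1 and dark minus light, from edgeR over all 20 libraries. All 10 points lie above 0 in the first panel, and the interval of Rbm3 runs from 0.59 to 1.98.

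Levels of several listed genes followed the share of reads that fell on genes, which was highest at ZT19. Cirbp had a Pearson r of 0.75 with the log2 odds of a read falling on a gene over the 20 libraries (permutation p adjusted over 30 relations, 0.0048) and a Spearman rho of 0.77 (adjusted 0.00375). It was 0.68 within times and 0.72 when the 2 libraries with the most extreme shares were left out. For Hspa8 r was 0.72 (rho 0.76, adjusted permutation p 0.00615 and 0.00375), 0.66 within times and 0.71 without those 2. For Rbm3 r was 0.68 (rho 0.71, adjusted permutation p 0.0084 and 0.0056), 0.51 within times and 0.84 without those 2. Dnajb1 and Hspa1b also passed, with r of 0.67 and 0.60 (rho 0.62 and 0.59, adjusted permutation p for r 0.0084 and 0.0293, for rho 0.0276 and 0.0348), of 0.53 and 0.49 within times, and of 0.55 and 0.79 without those 2. Hspa1a passed by rho (0.57, adjusted permutation p 0.041) and not by r (0.55, 0.0558). Its r was 0.49 within times and 0.59 without those 2. Hsph1 and Hspd1 did not pass, with r of 0.52 and 0.22 (rho 0.46 and 0.32). Their r was 0.42 and 0.14 within times, and 0.43 and 0.61 without those 2. The share of all genes that followed the odds was not computed. The permutations ignored time, so their p also reflects shifts that the odds and a gene share between times. No p was computed for r within times. Hspe1 and Hsp90aa1 had r of -0.33 and -0.34 (rho -0.14 and -0.07, adjusted permutation p for r 0.322 for each, for rho 0.758 and 0.806), of -0.35 and -0.30 within times, and of 0.04 and 0.13 without those 2. With the odds as a covariate, the difference between ZT19 and ZT13 was 0.99 for Rbm3, 0.39 for Cirbp and 0.42 for Hspa8 on the log2 scale, with adjusted p of 0.202, 0.635 and 0.634 in edgeR. Without the 2 libraries that stood apart at ZT7 and ZT13, a choice made after seeing the data, Rbm3 passed among the 4 times (adjusted p = 0.0116 in edgeR, against 4.28% of all genes). In that setting 7 combinations of a gene and a pair passed: Rbm3 against each other time, Hspa1b against ZT1, Hspa8 against ZT7, and Hspd1 and Dnajb1 against ZT13, all higher at ZT19. Of all genes, 9.37% passed there between ZT19 and ZT1, 12.1% between ZT19 and ZT7 and 10.6% between ZT19 and ZT13. The libraries kept at the other times had at most 39.7% of reads on genes (ZT13 replicate 2), against 35.0% to 81.6% at ZT19. In that setting ZT19 and a high share on genes can thus hardly be told apart.

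**Figure D4:**
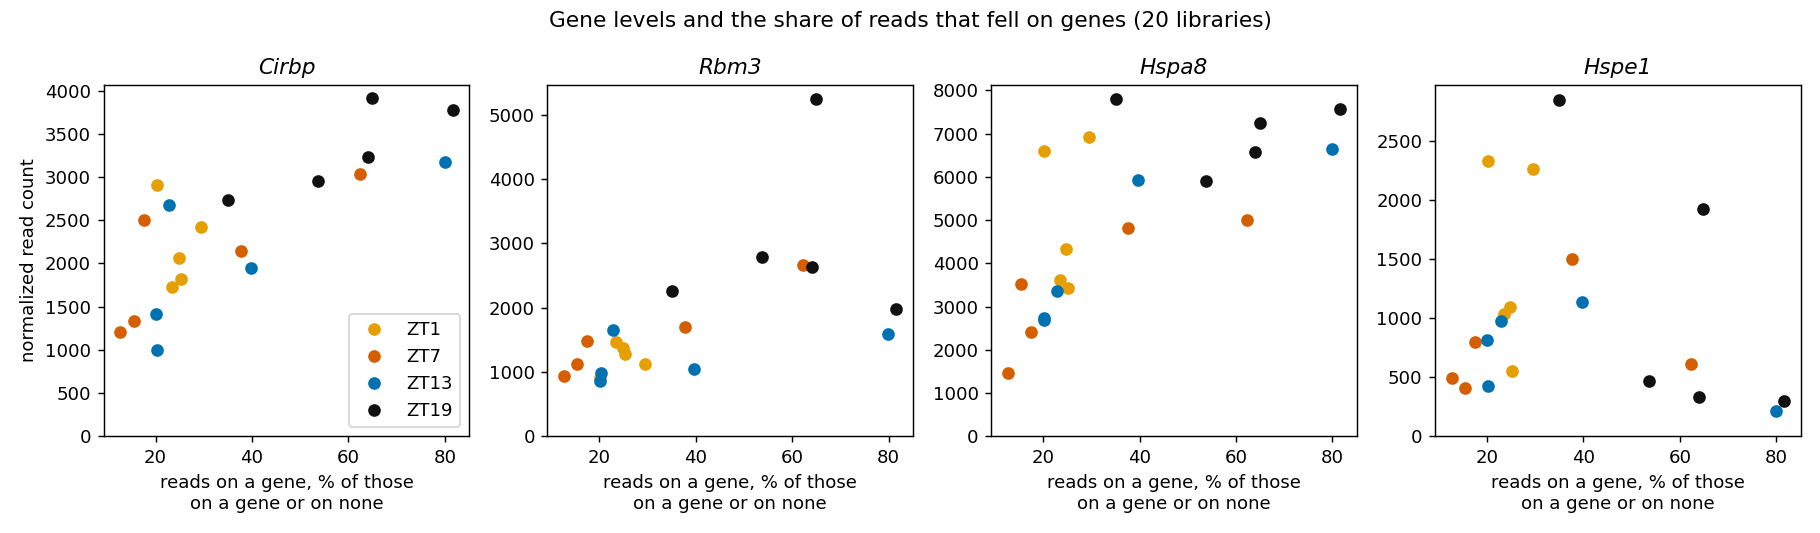
Normalized read count of Cirbp, Rbm3, Hspa8 and Hspe1 (vertical axis, from 0) against the percentage of reads on a gene among those on a gene or on none (horizontal axis), with 1 point per library coloured by time. Cirbp, Rbm3 and Hspa8 are higher where the share is higher, and the ZT19 libraries lie between 35.0% and 81.6%.

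Other markers moved with time as well. The 14 keratinocyte genes summed to 95702 to 195881 normalized read counts at ZT19 and to 10293 to 33568 at ZT13, without overlap, with all 14 above 0 in some library, and 7 of them passed among the 4 times. Rbm3 had an r of 0.49 with the keratinocyte mean (rho 0.64, adjusted permutation p 0.114 and 0.0223), of 0.15 within times and of 0.62 when the 2 most extreme libraries were left out. With the keratinocyte mean as a covariate, Rbm3 was 0.95 higher at ZT19 than at ZT13, with an adjusted p of 0.440 in edgeR. That mean was at most -0.29 at ZT13 (replicate 3) and at least 0.019 at ZT19 (replicate 2). Between these times the covariate and time can thus hardly be told apart. The 13 immediate early genes, which tissue digestion is known to raise, were highest at ZT13 in 10 cases and summed to 39074 to 120343 there, against 39508 to 65720 at ZT19, 20296 to 43202 at ZT1 and 17275 to 28829 at ZT7. Dnajb1 and Cirbp had an r of 0.76 and 0.64 with their mean within times and of 0.35 and 0.29 over all libraries (rho 0.28 and 0.27, adjusted permutation p for r 0.322 and 0.390, for rho 0.413 for each, and r of 0.27 and 0.12 without 2 libraries). With that mean as a covariate Dnajb1 was 1.89 higher at ZT19 than at ZT13 and passed (adjusted p = 0.0336 in edgeR). Without the covariate the difference was 0.95, and the covariate itself moved with time. In the fit with it, dark minus light of Dnajb1 was -0.94. Over all pairs of times 58 calls of any gene passed in that fit, and the share for this pair alone is not given here. The part of these markers in the differences between times was not tested beyond these fits.

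Per transcript length, the listed genes stood at different levels. In CPM per kilobase (median length of the coding transcripts), averaged over the 20 libraries, Hspa8 had 210.1 ± 82.9 (SD), Cirbp 171 ± 59.6, Rbm3 137 ± 79.9 and Hspe1 125 ± 92.8. Then followed Hsp90aa1 with 54.98 ± 42.2, Hspd1 with 43.0 ± 17.0, Hspa1b with 32.8 ± 15.7, Dnajb1 with 29.4 ± 15.0, Hsph1 with 9.13 ± 4.27 and Hspa1a with 7.76 ± 3.45. Neighbours in this order differed by less than the SD of either, except Hspe1 and Hsp90aa1 and except Dnajb1 and Hsph1. The cold-inducible pair thus came next after the constitutive Hsp70. Copies elsewhere in the genome can lower these levels, since reads aligned to more than 1 place were not counted, and such windows made up 47.5% of a transcript of Hsp90aa1, 26.9% of Hspd1, 22.4% of Hspe1 and 8.58% of Rbm3, but 0% of Hsph1, Dnajb1 and Cirbp.

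The rest of the chaperone network was described with 94 further genes in written lists, of which 93 were tested. Among the 4 times 1 of these passed in edgeR, where 0.422% of all genes did, and 23 passed unadjusted (24.7%, against 15.7% of all genes). The mean was highest at ZT19 for 54 of them, as for 27% of all genes. Here and in the lists below, the shares of all genes were not matched in level. The gene that passed was Fkbp5, a cochaperone of Hsp90 that steroid hormone receptors are known to induce. It had 1554 ± 475 normalized read counts (SD, n = 5) at ZT13, 758 ± 329 at ZT19, 455 ± 69.2 at ZT7 and 407 ± 71.1 at ZT1, with an adjusted p of 0.00428 in edgeR. It also passed for dark against light (1.34 higher in the dark on the log2 scale, adjusted p = 0.0251) and for the 24-h wave (adjusted p = 0.0209). Its peak at ZT13 was the time at which most of the 10 temperature-linked genes had their lowest mean.

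Of the 8 further mitochondrial chaperones and proteases, all 8 had their highest mean at ZT19 (27% of all genes) and 6 passed unadjusted (15.7% of all genes), with 0 after adjustment (0.422%). Grpel1, the nucleotide exchange factor of mitochondrial Hsp70, had 1762 ± 791 normalized read counts (SD, n = 5) at ZT19 and 803 ± 263 at ZT1, with an adjusted p of 0.215 among the 4 times in edgeR. Trap1, the mitochondrial Hsp90, had 1202 ± 306 at ZT19 and 641 ± 160 at ZT13. Of the 8 subunits of the cytosolic chaperonin TRiC, 7 were highest at ZT19 and 4 passed unadjusted, to be read against the same shares, and Cct7 had 3121 ± 657 at ZT19 and 1283 ± 528 at ZT13 (adjusted p = 0.196). Of the 18 cochaperones and partners of Hsp90 and Hsp70, 10 were highest at ZT19 and 6 passed unadjusted, against 27% and 15.7% of all genes, among them Stub1, a ubiquitin ligase for chaperone clients, with 1038 ± 464 at ZT19 and 310 ± 61.3 at ZT1, and Ahsa1, the activator of Hsp90, with 1258 ± 489 at ZT19 and 560 ± 317 at ZT13.

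In each of the remaining lists at most 2 genes passed unadjusted, and the lists were not compared with each other by a test. Of 12 J-domain proteins 1 passed unadjusted, Dnajc7, with 1833 ± 528 normalized read counts (SD, n = 5) at ZT19 and 837 ± 264 at ZT1. Of 12 chaperones of the endoplasmic reticulum 1 passed unadjusted, the disulfide isomerase gene Pdia6, with 2693 ± 806 at ZT19 and 1282 ± 486 at ZT13. Of 6 small heat shock proteins tested 1 passed unadjusted, Hspb8, with 670 ± 379 at ZT19 and 179 ± 74.1 at ZT13, and the median ZT19 minus ZT13 of this list was 0.97 on the log2 scale, against -0.22 over all genes. Of 8 Hsp70 and Hsp110 relatives 1 passed unadjusted, Hspa1l, and of 5 heat shock factors and their regulators 1 did, Hsf2, with 575 ± 427 at ZT1 and 148 ± 121 at ZT19. The chief heat shock factor gene Hsf1 had 936 ± 356 at ZT19, 880 ± 419 at ZT13, 601 ± 69.6 at ZT1 and 554 ± 135 at ZT7 (dark minus light 0.66 on the log2 scale, adjusted p = 0.273 in edgeR). Of 11 temperature-sensitive splicing kinases and SR proteins 2 passed unadjusted, Srsf7 and the kinase gene Clk3. Srsf7 had 4320 ± 1681 at ZT19 and 1846 ± 226 at ZT1. Of 5 relatives and targets of Rbm3, such as Rbm10, 0 passed unadjusted.

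Genes most like the 10 in pattern were sought among 10523 other genes with a mean of at least 10 CPM, by Pearson r over the 20 libraries. With the mean of the standardised heat shock genes these were Mbd3 (r = 0.93), Mtch2 (0.92), Ddx24 (0.91), Cct8 (0.91) and Acaa2 (0.91). With the mean of standardised Cirbp and Rbm3 they were Ywhah (0.93), Mpc1 (0.92), Hdgf (0.91), Cnbp (0.91) and Psmd11 (0.91). The values are descriptions with no test, since the libraries share depth and the share of reads on genes.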

How the data were processed

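RNA of sorted dermal LECs was amplified with SMART-Seq v4 and sequenced as single reads of 100 nt. The authors mapped reads to mm10 with STAR, counted them per gene symbol with HTSeq-count (1.0.0 in the submitters' processing notes) and deposited raw counts without normalization, 1 file per library. Annotation and strand setting are not given in the sources used here. Libraries were grouped by their titles. Counts were tested in R 4.3.3 with edgeR 4.0.16 over all 20 libraries (TMM, filterByExpr by time, quasi-likelihood F-test, Benjamini-Hochberg over 19209 genes, threshold 0.05): 4 times, the 6 pairs, dark against light, and cosine and sine terms of 24 h. Log2 values used a pseudocount of 1. Intervals and floors cover the spread between libraries and counting error only, since cDNA was amplified without molecular identifiers. Relations used 100000 permutations over all 20 libraries without regard to time. Scripts were tested on simulated counts. The alternatives were DESeq2 1.42.0, other scalings and filters, a replicate block, 3 covariates, only the times compared, and each library left out. DESeq2 is also the tool of the study's own tests, at a false discovery rate under 0.05, and its methods give no design for them.

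The genes named are all 10 listed genes, in further lists each gene that passed or at most the 3 with the smallest p, and the 5 most alike in pattern. The members and lists were chosen with earlier results of these data known. Positions, lengths and exon overlaps between genes came from the basic set of GENCODE M21 (GRCm38), exons under printed sequence from its full set, promoters from RefSeq.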

Additional observations from a re-analysis of the deposited data

How the results depend on the processing

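The counts of genes that passed depended strongly on the setting, while the listed genes stayed at 0 in most. Beside 81 genes among the 4 times, 2 for dark against light, 6 with a 24-h wave and 142 over the 6 pairs, DESeq2 passed 672, 257, 84 and 7049, and of the listed genes 1 among the 4 times and 4 combinations of gene and pair. RLE scaling passed 4 for dark against light, and upper quartile scaling 52 among the 4 times and 4 for dark against light. Between ZT19 and ZT13, 96 genes were higher and 17 lower with TMM, 79 and 38 with RLE, and 68 and 52 with upper quartile scaling. The odds of a read on a gene as a covariate passed 49, 0, 3 and 81, the keratinocyte mean 2 among the 4 times, 0 for dark against light and 1 over the pairs, and the immediate early mean 53, 0, 12 and 58, with 1 combination of a listed gene. Fits of only the 2 times compared passed 43 over the pairs. Without ZT7 replicate 2 and ZT13 replicate 5, chosen after seeing the data, 843 passed among the 4 times, 20 with a wave and 6317 over the pairs, and of the listed genes 1 among the 4 times and 7 combinations. With each library left out in turn the counts ranged from 30 to 178, from 1 to 5, from 0 to 10 and from 80 to 1073, and combinations of a listed gene from 0 to 1. The highest of these, 1073 over the pairs, came without ZT19 replicate 4, and 1052 without ZT13 replicate 5. The cause was not tested.

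The replicate block passed 31 genes among the 4 times, 1 for dark against light, 0 with a wave and 71 over the pairs, and 0 listed genes. Deviations of same-numbered libraries correlated between -0.54 and 0.34 over the pairs of times, and between 0.079 and 0.32 for ZT13 with ZT1. Whether the numbers pair the libraries cannot be told from these values, since libraries with different numbers were not compared.

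Signs turned in 28 of the values recomputed for single genes, and none of these had passed the threshold. ZT19 minus ZT13 of Hsph1 became -0.030 with RLE, -0.083 with upper quartile scaling, -0.030 in DESeq2, -0.030 with the replicate block and -0.28 with the odds covariate, and ranged from -0.16 to 0.35 with a library left out. That of Hsp90aa1 became -0.19 with the keratinocyte mean and ranged from -0.14 to 0.75. With the odds covariate, dark minus light became -0.22 for Hspa1a, -0.060 for Hspa1b, 0.052 for Hspe1, -0.046 for Dnajb1 and -0.053 for Cirbp, and ZT19 minus ZT1 became -0.22 for Hspa1a, -0.088 for Hspa8, -0.018 for Hspd1 and 0.20 for Hspe1. Dark minus light of Hspa1a became -0.11 with the keratinocyte mean. With the immediate early mean, which moves with time, it became -0.44 for Hspa1a, -0.43 for Hspa8, -0.94 for Dnajb1 and -0.56 for Cirbp. Dark minus light of Hspd1 ranged from -0.22 to 0.0048 with a library left out and was 0.025 without both libraries, and its ZT19 minus ZT1 ranged from -0.11 to 0.29. A call was gained in 13 of the recomputed values: 7 of ZT19 minus ZT13, 4 of ZT19 minus ZT1, 2 ranges over the 4 times and 0 of dark minus light. No pair of times without ZT19 was recomputed for single genes, so these gains cannot set ZT19 apart.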

Other observations

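Some genes of the other cell types that skin can yield also differed among the times. Of 14 keratinocyte genes 7 passed among the 4 times in edgeR, and all 7 were highest at ZT19 and lowest at ZT13. The basal keratin gene Krt15 had 41399.8 ± 17312 normalized read counts (SD, n = 5) in the ZT19 libraries and 3653 ± 739 in those of ZT13, and the epidermal gene Sfn had 2309 ± 1177 and 199 ± 95.6. Krt5, Krt14, Perp, Col17a1 and Dmkn were the other genes of that list that passed between ZT19 and ZT13. Of 10 fibroblast genes 1 passed, the matrix gene Ccdc80, with 2003 ± 609 at ZT1 and 224 ± 114 at ZT7. Of 8 blood endothelial, 8 leukocyte, 6 mural and 9 tested LEC genes, 0 passed in edgeR, with 1, 0, 0 and 1 at an unadjusted p under 0.05.

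Of 13 immediate early genes 3 passed among the 4 times. Fos had 12594 ± 3091 normalized read counts at ZT13 and 3220 ± 748 at ZT7, Zfp36 had 3178 ± 751 and 1042 ± 221, and Fosb had 1678 ± 635 at ZT13 and 361 ± 95.4 at ZT19. Of 4 clock genes 1 passed, the clock output gene Dbp, with 766 ± 156 at ZT7 and 192 ± 60.1 at ZT19. For the 24-h wave, 1 of the 4 passed after adjustment and 3 unadjusted, against 9.23% of all genes. Arntl (Bmal1) and Per2 had unadjusted p of 0.0068 and 0.029 and adjusted p of 0.415 and 0.520 in edgeR. The study reported both as strongly oscillating in its LEC sequencing. A gene that did not pass here is thus not shown to lack a rhythm.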
